A study of Bos taurus with 4 samples.

Results

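The genes described here encode the factors that start protein synthesis on the ribosome and carry it along the messenger, named EIF for initiation and EEF for elongation. They were taken from a 2-colour oligonucleotide array as the probes whose platform symbol begins with EIF or EEF and a digit, leaving out EEF1E1 and EIF1AY, and each gene was read from its probe of highest mean signal. This gave 57 genes with 84 probes, of 15229 genes with a symbol and 43794 probes on the array. Of the 57 genes, 56 passed a filter on dim probes and were tested, and AGO1 was not. The filter uses the mean signal over both ages.

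The RNA came from early blastocysts of Holstein cattle (Bos taurus) made in vitro and pooled 168 hours after fertilization. On each of 4 arrays, 1 heifer supplied a 14-month pool, whose oocytes were taken when the donor was 14 months old, and an 11-month pool, taken when the donor was 11 months old. At both ages the donors received progesterone and FSH, the dominant follicle was aspirated, and the oocytes were matured, fertilized with semen of adult bulls and cultured in vitro. The 14-month pool carried the dye Cy3 in replicates 1 and 2 and Cy5 in replicates 3 and 4, and the 11-month pool carried the other dye. Each heifer was hybridized in 1 orientation, so dye orientation cannot be told apart from differences between the 2 pairs of heifers. The sources used here do not state how many embryos a pool held, and donor age cannot be told apart from the date of collection. By its title, the study evaluated how good the blastocysts of peri-pubertal donors are.

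In cap-dependent initiation, EIF2 brings the initiator tRNA to the small ribosomal subunit, which EIF1 and EIF3 prepare for scanning, and the EIF4 factors recruit the messenger through its cap. EIF5 and EIF5B then release EIF2 and join the large subunit, after which EEF1A delivers each aminoacyl-tRNA and EEF2 moves the ribosome by a codon. Phosphorylation of EIF2 lowers initiation on most messengers, and EIF2B is the exchange factor that this inhibits. Early bovine embryos depend at first on messengers stored in the oocyte, and the blastocyst makes its own.

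The label covers most but not all of these genes. AGO1, AGO2 and AGO3 are Argonautes of the microRNA pathway, which the platform lists under their older names as EIF2C genes. EIF2A is a separate protein and not a subunit of EIF2, EIF4A3 is a core protein of the exon junction complex, and EIF1AD is a nuclear relative of EIF1A. EIF2AK1 to EIF2AK4 are the kinases that phosphorylate EIF2, and EEF2K is the kinase of EEF2. EIF3A, EIF4G1 and EIF1AX were not analysed here.

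The values are of 2 kinds. A level is the log2 signal of a pool, made here from the scanner intensities and normalized within and between arrays. A ratio is the deposited log2 ratio of 11 over 14 months within an array, so that a negative ratio means more signal in the 14-month pool. The authors' normalization of the ratios differs from that of the levels, so that a difference of levels need not equal the ratio. Ratios are given as the mean ± SD over 4 heifers and were tested with limma, with Benjamini-Hochberg adjustment over all 36447 tested probes.

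Between 63.6% and 68.1% of probes were above the limit of the negative controls in the 14-month pools, and between 65% and 71.6% in the 11-month pools. Of the blastocyst markers, 9 were on the array and 8 of them were above the limit in all 8 channels, and SOX17 was above it in 1 of 4 pools at 14 months and 3 of 4 at 11 months. NANOG, the pluripotency factor, had the highest ratio of these markers, 1.12 ± 0.37, and was lower at 14 months on all 4 arrays (limma adjusted p = 0.328). All 12 markers of cumulus and granulosa cells were on the array. Of these, 6 were above the limit in all 8 channels and AMH in none, and their summed signal was 1844 to 2336 at 14 months and 1897 to 2590 at 11 months. GATM and VCAN were higher at 14 months on all 4 arrays, GATM with a ratio of -0.48 ± 0.22 (limma adjusted p = 0.363), and VCAN was above the limit in 3 of 4 pools at 14 months and 0 of 4 at 11 months. TNFAIP6 was lower at 14 months on all 4 arrays, with a ratio of 0.12 ± 0.10. Of the 11 tested markers of this list, 6 means were higher at 14 months and 5 were lower. None of the 8 sperm markers was above the limit in all 8 channels and 4 were in none. Their sums were 776 to 878 at 14 months and 734 to 1019 at 11 months. Markers above the limit in no channel still add to both kinds of sum. One of these, ODF1, had a mean level of 6.49 at 14 months and 6.43 at 11 months. CATSPER1 had a ratio of -0.41 ± 0.09 (limma adjusted p = 0.372) and was above the limit in 3 of 4 pools at 14 months and 1 of 4 at 11 months. Of the 5 tested sperm markers, 3 means were higher at 14 months and 2 were lower. The part of other cells in the results below was not tested. In pools of whole embryos, fewer cells of a type and less RNA per cell cannot be told apart.

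No translation factor passed the test at an adjusted p of 0.05. EIF4A1, EEF1A1 and EIF1AD had more signal in the 14-month pools at an unadjusted p under 0.05, and EIF2S3, EEF2K, EIF5 and EIF4B had less. For EEF1A1 a second probe had less signal in the 14-month pools on all 4 arrays, while the brightest probe had more on 3. The farthest ratios belonged to 2 further probes of EIF4E2, the cap-binding repressor also known as 4EHP, which read about 2-fold higher in the 14-month pools, while the brightest probe of that gene did not. No other brightest probe had an unadjusted p under 0.05.

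Of all 36447 probes, 0 passed the adjusted test (0%), and the lowest adjusted p from limma was 0.328. The lowest among the 56 genes was 0.393. At an unadjusted p under 0.05, 3 of 56 genes (5.36%) were higher in the 14-month pools, against 5.11% of all probes, and 4 (7.14%) were lower, against 4.09%. The sign was the same on all 4 arrays for 5 genes higher at 14 months (8.93%), against 7.82% of all probes, and for 6 genes lower (10.7%), against 8.86%. Over the brightest probes of 13530 named genes, 4.21% were higher and 5.14% lower at that unadjusted p. Of these, 7.01% were higher and 9.37% lower on all 4 arrays. The shares of the 56 genes were near those of both backgrounds. They rest on single arrays: without replicate 3, 0 genes were higher and 2 lower, and without replicate 2, 1 was lower. No brightest probe reached a 1.5-fold difference, against 2% of all probes. Over the 56 genes the median ratio was 0.04, beside 0.02 over all probes, and 24 means were higher and 32 lower at 14 months, with 46% of all probes higher. The median 95% interval reached 0.32 to either side of a ratio, and it differed between genes with their spread.

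**Figure D1:**
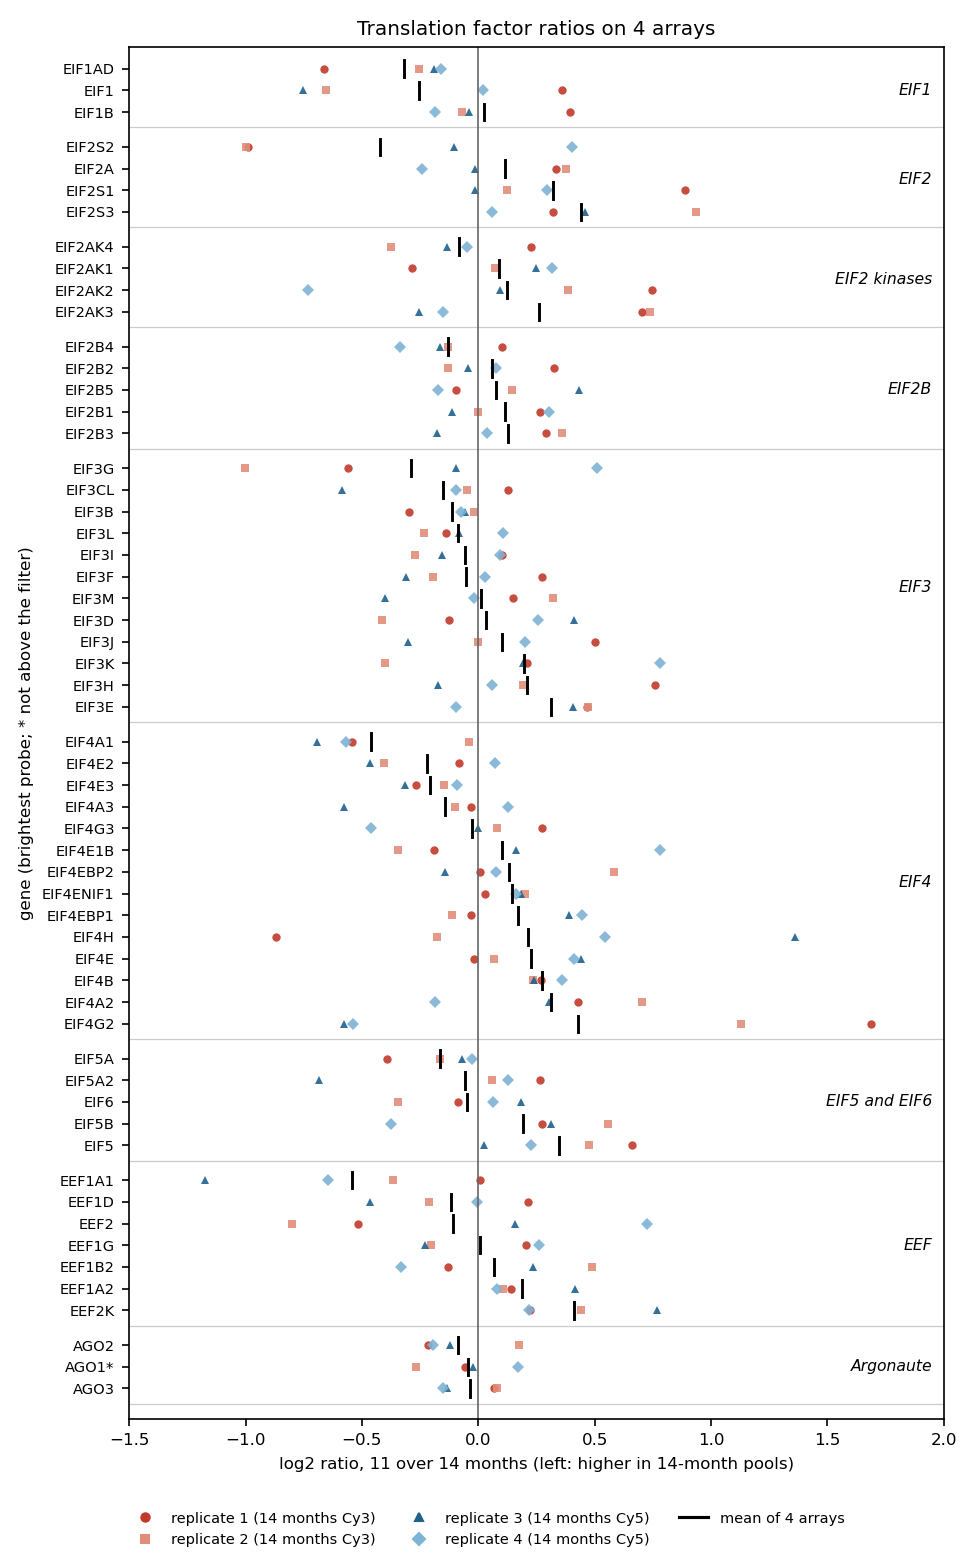
Log2 ratio of 11 over 14 months for the 57 genes, grouped by complex. Points are the 4 arrays, red where the 14-month pool carried Cy3 and blue where it carried Cy5, and black ticks are the means of 4 arrays. Points left of 0 are higher in the 14-month pools. For EIF4G2, EIF2S2 and EIF4H the red and blue points lie far apart.

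Among the cap-binding proteins, EIF4E2 gave the farthest ratios. It competes with EIF4E for the cap, does not bind EIF4G and lowers translation of the messengers it holds. Its 3 probes did not read alike, and the further probes were named after their values had been seen. Probe EMBV3_17706 had levels of 10.22, 10.18, 9.80 and 9.51 in the 14-month pools, in the order of replicates 1 to 4 used throughout, against 8.64, 8.34, 9.18 and 9.33 at 11 months. Probe EMBV3_19809 had 11.01, 11.16, 10.54 and 10.32 in the 14-month pools, against 9.71, 9.27, 9.94 and 10.06 in the 11-month pools. On both, every 14-month pool lay above every 11-month pool, and the difference was small in replicate 4. That held for 2 of the 81 tested EIF and EEF probes (2.47%), near the 2.21% of all probes, and for 0 of the 56 brightest probes. The ratio of EMBV3_17706 was -1.07 ± 0.77 (SD, n = 4), a 2.10-fold higher signal at 14 months, with a 95% interval of the ratio of -1.64 to -0.50 and a limma adjusted p of 0.334. For EMBV3_19809 the ratio was -1.03 ± 0.70 (SD, n = 4), with an interval of -1.56 to -0.50 and a limma adjusted p of 0.334. The brightest probe, EMBV3_00330, had levels of 11.67, 12.01, 11.59 and 11.54 at 14 months, against 11.51, 11.63, 11.23 and 11.59 at 11 months, so that the groups overlapped and the ratio was -0.22 ± 0.26.

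The size of the EIF4E2 ratios differed between the 2 dye orientations, which are also 2 pairs of heifers. On EMBV3_17706 they were -1.58 and -1.84 in replicates 1 and 2, where the 14-month pool carried Cy3, and -0.68 and -0.19 in replicates 3 and 4. On EMBV3_19809 they were -1.26 and -1.89, and then -0.70 and -0.28. The sign was the same within both dye orientations. In a limma fit with a term for dye orientation, 0.903% of all probes passed as higher at 14 months, and both EIF4E2 probes were among them with adjusted p of 0.0153 and 0.0226. That call was lost when the same fit used ratios made here from the scanner values, where both adjusted p were 0.0545 and no probe of any gene passed. It was also lost without replicate 2, with adjusted p of 0.134 and 0.155.

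**Figure D2:**
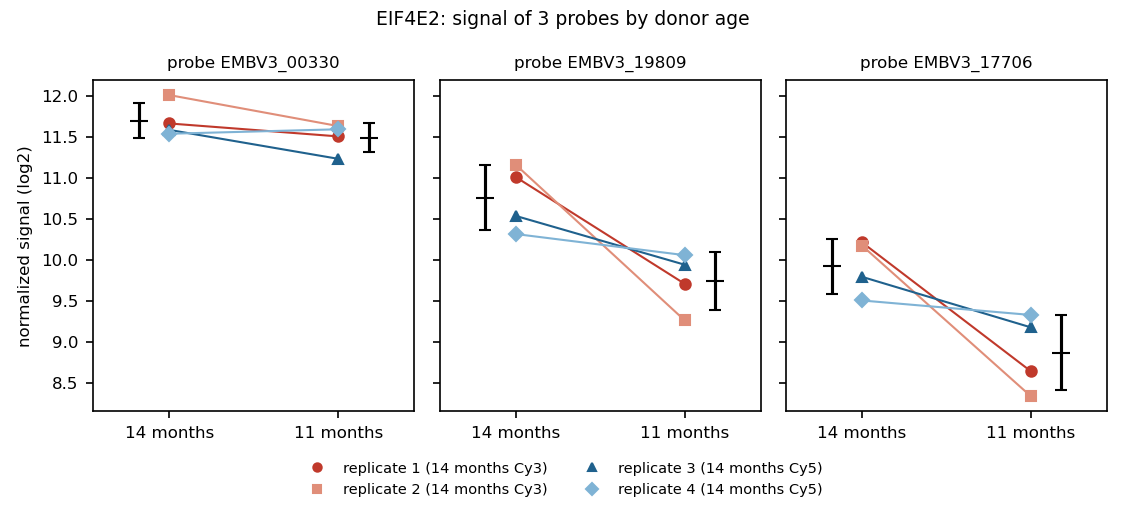
Normalized log2 signal of the 3 EIF4E2 probes in the 14-month pools on the left and the 11-month pools on the right of each panel. Lines join the pools of 1 heifer, and black bars are mean ± SD of 4 pools. All lines fall to the right on EMBV3_17706 and EMBV3_19809, and the ages overlap on EMBV3_00330.

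The other cap-binding proteins differed less. EIF4E, which binds the cap to begin initiation, had ratios of -0.02, 0.07, 0.44 and 0.41, with a mean of 0.23 ± 0.23. Its other 2 probes had means of 0.29 and 0.20, so that all 3 read somewhat lower at 14 months and none had an unadjusted p under 0.05. EIF4E3, a cap-binding relative, was higher at 14 months on all 4 arrays, with ratios of -0.27, -0.15, -0.32 and -0.09 and a mean of -0.21 ± 0.10. EIF4E1B, an oocyte form of EIF4E, was above the limit in only 1 of 4 channels at each age. Proteins that hold EIF4E had small ratios. EIF4EBP1, the binding protein controlled by mTOR, was above the limit in 1 of 4 pools at 14 months and 3 of 4 at 11 months, with a ratio of 0.17 ± 0.29. Its relative EIF4EBP2 had 0.13 ± 0.32. EIF4ENIF1, which carries EIF4E into the nucleus, was lower at 14 months on all 4 arrays by a small amount, with a ratio of 0.14 ± 0.08.

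The helicase EIF4A unwinds the leader of the messenger, and its paralogues did not share a direction. EIF4A1, the main form in most growing cells, had levels of 13.78, 12.74, 13.31 and 13.56 in the 14-month pools, against 13.35, 12.74, 12.57 and 12.89 in the 11-month pools. It was higher at 14 months in replicates 1, 3 and 4 and nearly equal in replicate 2, and the groups overlapped. The ratios were -0.54, -0.04, -0.69 and -0.57, with a mean of -0.46 ± 0.29 and a 1.38-fold higher signal at 14 months (limma adjusted p = 0.393). EIF4A2, its close paralogue, had ratios of 0.43, 0.71, 0.30 and -0.19 with a mean of 0.31 ± 0.37 (limma adjusted p = 0.613). The sign was opposite to that of EIF4A1 on replicates 1 to 3. EIF4A3 had -0.03, -0.10, -0.58 and 0.13, with a mean of -0.14 ± 0.30. Whether the paralogues differed from each other was not tested.

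EIF4B and EIF4H are RNA-binding proteins that stimulate EIF4A. EIF4B had levels of 12.88, 13.50, 12.56 and 13.07 in the 14-month pools, against 13.04, 13.78, 12.82 and 13.33 in the 11-month pools. It was lower at 14 months in every heifer by a like amount, although the heifers differed so much that the groups overlapped. Its ratios were 0.27, 0.24, 0.24 and 0.36, with a mean of 0.28 ± 0.06 (limma adjusted p = 0.528). The direction rests on the processing, since ratios made from mean in place of median spot signals gave -0.01. EIF4H had ratios of -0.87, -0.18, 1.36 and 0.55, whose sign differed between the dye orientations, and a mean of 0.21 ± 0.96.

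EIF4G2, also known as DAP5, is a scaffold that lacks the EIF4E-binding part of EIF4G and serves initiation away from the cap. Its levels were 13.37, 13.53, 14.74 and 14.84 in the 14-month pools, against 15.00, 14.95, 13.90 and 13.82 in the 11-month pools. The pool in Cy5 was the higher one on all 4 arrays. Its ratios of 1.69, 1.13, -0.58 and -0.54 gave a mean of 0.43 ± 1.16, with the largest SD of the 56 genes. A second and much dimmer probe had a mean of -0.12. EIF4G3, a paralogue of EIF4G1, was above the limit in 2 of 4 channels at each age, with ratios of 0.28, 0.08, -0.002 and -0.46 and a mean of -0.03 ± 0.31. Over all 14 EIF4 genes the median ratio was 0.14, and it was 0.02 in ratios made from mean spot signals.

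EIF2 is a trimer of EIF2S1, EIF2S2 and EIF2S3, and its subunits did not share a direction. EIF2S3, the subunit that binds GTP and the initiator tRNA, had levels of 10.50, 10.04, 9.72 and 10.27 in the 14-month pools, against 10.75, 10.94, 10.27 and 10.34 in the 11-month pools. It was lower at 14 months in every heifer, least so in replicate 4, and the groups overlapped. The ratios were 0.32, 0.93, 0.46 and 0.06, with a mean of 0.44 ± 0.37 (limma adjusted p = 0.443). EIF2S1, which carries the serine that the EIF2 kinases phosphorylate, had 0.89, 0.12, -0.02 and 0.30, with a mean of 0.32 ± 0.40 (limma adjusted p = 0.612). Replicate 1 gave the largest of these. EIF2S2, the subunit that contacts EIF5 and EIF2B, had -0.990, -0.998, -0.104 and 0.404, with a mean of -0.42 ± 0.69. A second and dimmer EIF2S2 probe, above the limit in 3 of 4 pools at 14 months and 1 of 4 at 11 months, had a mean of -0.36 ± 0.26 and was higher at 14 months on all 4 arrays (limma adjusted p = 0.474). EIF2A, which can deliver initiator tRNA apart from EIF2, had a mean of 0.11 ± 0.30.

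The 4 EIF2 kinases answer to different stresses, and none had an unadjusted p under 0.05. EIF2AK3, known as PERK, the kinase of the endoplasmic reticulum, had ratios of 0.71, 0.74, -0.26 and -0.15, split by dye orientation, with a mean of 0.26 ± 0.54. EIF2AK1, the haem-regulated kinase, had -0.28, 0.07, 0.25 and 0.32 and a mean of 0.09 ± 0.27. EIF2AK4, known as GCN2, which senses uncharged tRNA, averaged -0.08 ± 0.25. EIF2AK2, known as PKR and activated by double-stranded RNA, averaged 0.12 ± 0.63 and was above the limit in 2 of 4 pools at 14 months and 3 of 4 at 11 months.

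EIF2B, which reloads EIF2 with GTP, had ratios close to 0. Its 5 subunits had means between -0.13 and 0.13 and a median of 0.08. EIF2B4, a regulatory subunit, had ratios of 0.10, -0.13, -0.17 and -0.34, with a mean of -0.13 ± 0.18. EIF2B3, a subunit of the catalytic part, had 0.29, 0.36, -0.18 and 0.04, with a mean of 0.13 ± 0.25. The catalytic subunit EIF2B5 averaged 0.08 ± 0.27, EIF2B1 0.11 ± 0.20 and EIF2B2 0.06 ± 0.20. All SDs were larger than the means.

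EIF3 is the largest initiation factor and bridges the small subunit and the messenger. Its 12 measured subunits had a median ratio of -0.02, with 6 means on each side of 0. EIF3E had ratios of 0.47, 0.47, 0.41 and -0.10 and a mean of 0.31 ± 0.27 (limma adjusted p = 0.555), and it was lower at 14 months in all heifers but that of replicate 4. EIF3G had -0.559, -1.005, -0.0963 and 0.510, with a mean of -0.29 ± 0.65, and its second probe averaged 0.23 ± 0.37 with the opposite sign. EIF3H averaged 0.21 ± 0.40 and EIF3K 0.20 ± 0.48, both lower at 14 months on average. EIF3B, a core subunit of the RNA-binding part, was higher at 14 months on all 4 arrays with a mean of -0.11 ± 0.13. The other 7 subunits, named EIF3CL, EIF3D, EIF3F, EIF3I, EIF3J, EIF3L and EIF3M, had means between -0.15 and 0.10 on their brightest probes. A second EIF3I probe averaged -0.40 ± 0.57. The second EIF3CL probe averaged -0.27 ± 0.19 and was higher at 14 months on all 4 arrays. EIF3F was read by 4 probes with means of -0.05, -0.37, -0.18 and 0.14, which do not share a sign.

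EIF1 guards the choice of start codon. Its brightest probe had ratios of 0.36, -0.65, -0.75 and 0.02, with a mean of -0.26 ± 0.54. A second EIF1 probe had 0.72, 0.13, 0.13 and 0.42, with a mean of 0.35 ± 0.28 (limma adjusted p = 0.5). The 2 probes of EIF1 thus had opposite means. EIF1B, its paralogue, averaged 0.02 ± 0.26. EIF1AD had levels of 9.95, 9.75, 9.59 and 9.98 in the 14-month pools, against 9.25, 9.45, 9.47 and 9.85 in the 11-month pools. It was higher at 14 months in every heifer, most in replicate 1, and the groups overlapped. The ratios were -0.66, -0.26, -0.19 and -0.16, with a mean of -0.32 ± 0.24 (limma adjusted p = 0.527). A second and much dimmer EIF1AD probe had -0.15, -0.32, 0.22 and 0.09, with a mean of -0.04 ± 0.24.

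EIF5 makes EIF2 hydrolyse its GTP when the start codon is found. It had levels of 11.85, 12.12, 12.39 and 12.43 in the 14-month pools, against 12.41, 12.65, 12.44 and 12.57 in the 11-month pools. The 14-month pools were lower in every heifer, mainly in replicates 1 and 2, and the ranges met at their edge. Its ratios were 0.66, 0.48, 0.03 and 0.23, with a mean of 0.35 ± 0.28 (limma adjusted p = 0.501), and its other 2 probes averaged 0.29 and 0.14. EIF5B, which joins the subunits, averaged 0.19 ± 0.40, and EIF6, which keeps free large subunits apart from small ones, averaged -0.05 ± 0.23. EIF5A, the hypusine-bearing factor that helps the ribosome past stalling sequences, had -0.39, -0.16, -0.07 and -0.03, with a mean of -0.16 ± 0.16. All 4 signs of EIF5A were towards the 14-month pools. Its paralogue EIF5A2 had 0.26, 0.06, -0.68 and 0.13, with a mean of -0.06 ± 0.42.

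Among the elongation factors, EEF2K and EEF1A1 had unadjusted p under 0.05 in opposite directions. EEF2K phosphorylates EEF2 and thereby slows elongation. It had levels of 6.82, 6.77, 7.34 and 6.79 in the 14-month pools, against 7.02, 7.16, 8.03 and 6.88 in the 11-month pools. All 4 heifers had less at 14 months, most clearly in replicate 3, and the groups overlapped. The ratios were 0.22, 0.44, 0.77 and 0.22, with a mean of 0.41 ± 0.26 (limma adjusted p = 0.421). Its target EEF2 had ratios of -0.52, -0.80, 0.16 and 0.72, split by dye orientation, and a mean of -0.11 ± 0.69.

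EEF1A1 brings aminoacyl-tRNA to the ribosome and is among the most abundant proteins of growing cells. Its brightest probe had levels of 14.80, 14.69, 14.91 and 14.91 in the 14-month pools, against 14.98, 14.77, 13.50 and 13.79 in the 11-month pools. The 11-month pools of replicates 3 and 4, in Cy3, were the low ones, and the groups overlapped. Its ratios were 0.01, -0.36, -1.18 and -0.65, with a mean of -0.54 ± 0.50 (limma adjusted p = 0.426). A second EEF1A1 probe had ratios of 0.06, 0.20, 0.50 and 0.51 and a mean of 0.32 ± 0.22 (limma adjusted p = 0.519). The gene therefore had no single direction, and the mean of both probes was -0.11. EEF1A2, the form of muscle and neurons, was lower at 14 months on all 4 arrays, with ratios of 0.14, 0.11, 0.42 and 0.08 and a mean of 0.19 ± 0.16, and was above the limit in 2 of 4 pools at 14 months and 3 of 4 at 11 months. The exchange subunits of EEF1 had means of 0.07 ± 0.37 for EEF1B2, -0.12 ± 0.29 for EEF1D and 0.01 ± 0.26 for EEF1G.

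Argonautes load small RNAs and silence their targets. AGO2, the form that cuts its target, averaged -0.09 ± 0.18 with ratios of -0.21, 0.18, -0.12 and -0.19. AGO3 averaged -0.03 ± 0.13 with ratios of 0.07, 0.08, -0.14 and -0.15, and AGO1 was above the limit in 1 of 4 channels at each age.

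In human cells, several elongation factors and some initiation factors are encoded by TOP messengers, whose leader begins with a run of pyrimidines and whose translation follows mTOR. The 9 members known there as TOP messengers, a list chosen after the files had been seen, had a median ratio of 0.01, and the other 47 had 0.06. By array, the TOP medians were 0.21, -0.19, -0.17 and 0.03, which shows no direction shared by the heifers.

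Several probes read 20 of the 57 genes, and 18 genes had more than 1 tested probe. In 8 of these 18 the probes had means on both sides of 0, namely EEF1A1, EEF2, EIF1, EIF2B2, EIF2B5, EIF3F, EIF3G and EIF4G2. Of all 81 tested probes, 7 were higher at 14 months at an unadjusted p under 0.05 (8.64%, against 5.11% of all probes) and 6 were lower (7.41%, against 4.09%). A 1.5-fold difference was reached by 2 of the 81 (2.47%, against 2% of all probes), both of them further probes of EIF4E2. The transcripts that the probes of a gene read were not compared, and no probe sequence was used.

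**Figure D3:**
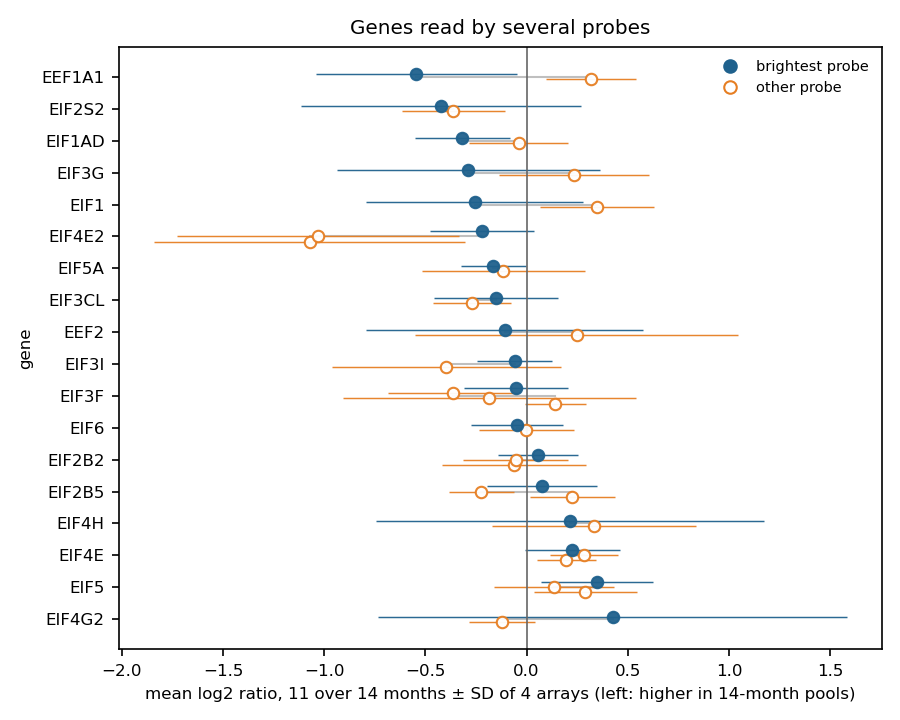
Mean log2 ratio of 11 over 14 months ± SD of 4 arrays for the 18 genes with several tested probes. Filled points are the brightest probe and open points the other probes, and points left of 0 are higher in the 14-month pools. The EEF1A1 probes lie at -0.54 and 0.32, and 2 EIF4E2 probes lie near -1.

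Many ratios differed between the 2 dye orientations, which are also 2 pairs of heifers. Across the 36447 tested probes, the correlation of ratios was 0.56 between replicates 1 and 2 and 0.31 between replicates 3 and 4. These pairs share an orientation, and the correlation was -0.17 to 0.12 between arrays of opposite orientation. Across the 56 genes, the mean of replicates 1 and 2 correlated at -0.23 with that of replicates 3 and 4. These correlations are across probes or genes, which are not independent replicates. The orientation term passed an adjusted p of 0.05 for 2.38% of all probes and for 2 of 56 genes (3.57%), EIF4G2 with a limma adjusted p of 0.0093 and EIF2S2 with 0.0445. EIF4H had 0.0504, EIF2AK3 0.0529 and EEF2 0.0555. In replicates 1 and 2 the mean ratio was 1.41 for EIF4G2, -0.99 for EIF2S2 and -0.52 for EIF4H. In replicates 3 and 4 it was -0.56, 0.15 and 0.95, with the opposite sign for each. EIF4B, at 0.25 and 0.30, EEF2K, at 0.33 and 0.49, and EIF4A1, at -0.29 and -0.63, kept their sign within both orientations.

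**Figure D4:**
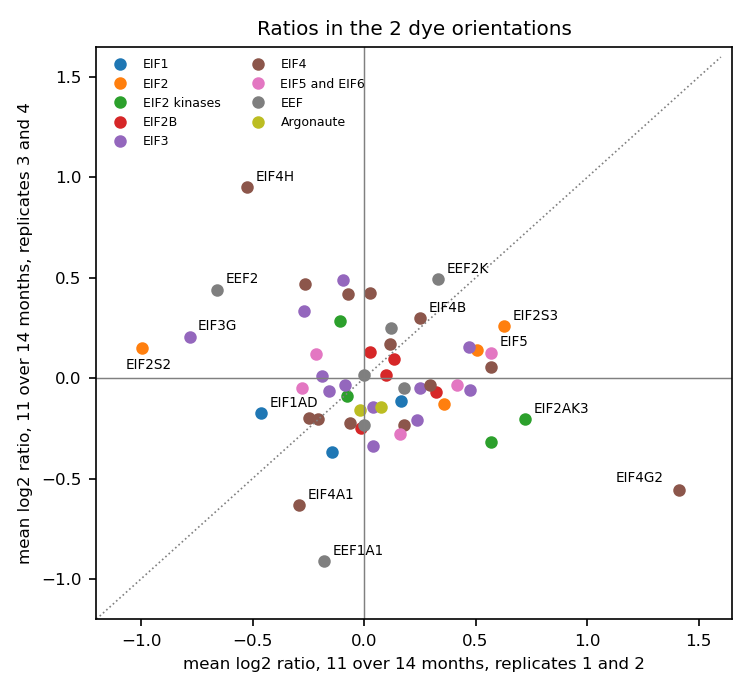
Mean log2 ratio of 11 over 14 months in replicates 1 and 2, where the 14-month pool carried Cy3, against that in replicates 3 and 4, where it carried Cy5, for the 56 tested genes. The dotted line marks equal ratios. EIF4G2, EIF2S2, EIF4H, EEF2 and EIF3G lie where the signs are opposite.

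Genes that work with these factors were read from further lists, of which the genes with an unadjusted p under 0.05 are named. Of 12 partners of the cap and the poly(A) tail, 3 were lower at 14 months at an unadjusted p under 0.05 and 0 were higher, against 4.09% and 5.11% of all probes. The medians of these lists lay between 0.03 and 0.08. PAIP1, which joins the poly(A)-binding protein to EIF4A and EIF3, had levels of 11.15, 11.51, 11.34 and 11.32 at 14 months, against 11.60, 12.02, 11.66 and 11.79 at 11 months. All 14-month pools lay below all 11-month pools, as for 0.826% of all probes, and the ratio was 0.43 ± 0.16 with a limma adjusted p of 0.37. PDCD4, an inhibitor of EIF4A, had a ratio of 0.41 ± 0.29, and LARP4, which binds poly(A), 0.34 ± 0.29. Among 14 kinases, phosphatases and genes of nutrient control, only ATF4, the transcription factor translated when EIF2 is phosphorylated, had an unadjusted p under 0.05. It was higher at 14 months on 3 of 4 arrays, with a ratio of -0.50 ± 0.50. Of 8 enzymes that modify EIF5A and EEF2, DPH5, of diphthamide synthesis, was lower at 14 months with 0.40 ± 0.31. Of 12 selenocysteine and mitochondrial factors, SEPHS2, which makes selenophosphate, was lower with 0.37 ± 0.15. In 8 genes of scanning, subunit joining and recycling and in 8 of termination and rescue, 0 had an unadjusted p under 0.05, and no gene of these lists passed the limma test at an adjusted p of 0.05.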

How the data were processed

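The 4 arrays each hold 1 heifer's blastocyst pools of both donor ages, grouped by the channel labels. Per the labels' protocols, pool RNA went through 2 rounds of linear amplification before the dyes were attached, which can change the relation between transcripts. Per the file headers, the authors deposited scanner intensity values of each spot and its local background, not background-corrected. The authors also deposited log2 ratios, for which the sources used here state neither centring nor background method. Compared with the scanner files, the matrix ran 11 over 14 months on all arrays (across probes, correlations of 0.986 to 0.993 and slopes of 0.884 to 1.08 with background-subtracted loess ratios, and 0.914 to 0.989 and 1.07 to 1.39 with normexp ratios), with column medians of 0.00853, 0.00336, 0.00104 and 0.0234.

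The ratios were fitted in R 4.3.3 with limma 3.58.1 (lmFit and eBayes, 1 coefficient, 3 residual and 5.98 prior degrees of freedom, two-sided). Probes were tested where their mean log2 signal exceeded the mean plus 2 SD of 153 negative controls, which left out 7347 of 43794. Channel levels came from median signals by normexp with an offset of 50, loess with weight 0 for 1426 control spots, and Aquantile. Each ratio already pairs the ages of 1 heifer, dye effects cancel in its mean over arrays but stay in the SD, and an exact sign-flip test of 4 ratios cannot give a p below 0.125. Precision is limited by the 4 arrays.

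Symbols are those of GEO's platform annotation, which gives a symbol for 21790 probes and none for 22004. Of the member symbols 5 were updated, and all 57 matched the ARS-UCD2.0 table, from which no coordinates are printed because no build is given for the array design. The named genes are all members, with array values for the 2 of smallest unadjusted p in each complex, all with an unadjusted p under 0.05 and the paralogues of EIF4A, EIF4E, EIF4G, EIF5A and EEF1A. Members and gene lists were chosen with earlier results of these data known. Alternatives were other scanner normalizations, filters, a dye term, no pairing, the mean of a gene's probes and leaving out each replicate. The fit was tested on simulated data, and figures were drawn with matplotlib.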

Additional observations from a re-analysis of the deposited data

Results flagged for a closer look

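Each of the 56 tested genes was checked for an array far from the other 3. EIF3E, a subunit of EIF3, had a ratio of -0.10 in replicate 4, where the other 3 arrays had 0.41 to 0.47. The gap to its nearest neighbour was 0.884 of the whole range, above Dixon's 95% critical value for 4 samples. About 1 in 20 groups of samples show such a gap by chance, and only 1 of the 56 genes was flagged.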

How the results depend on the processing

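No gene's brightest probe passed an adjusted p of 0.05 under any planned setting in limma, where counts without 1 replicate were 0 to 0, beside 3 and 4 genes at an unadjusted p under 0.05. The count higher at 14 months, 3, was 1 with median centring of scanner ratios, 6 with mean foreground signals and 0 to 4 without 1 replicate, 0 being without replicate 3. The count lower at 14 months, 4, was 9 with the dye term and 1 to 6 without 1 replicate, 1 being without replicate 2. Counts over all 36447 probes also moved with the setting. At an unadjusted p under 0.05 in either direction they were 3352 in the main fit, 6025 with the dye term and 3884 with mean foreground. They were 2050 with median centring, 2056 with no replicate block, 1637 without replicate 2 and 3022 without replicate 3. The median ratio of the 56 genes ran from -0.03 to 0.05 without 1 replicate. The median of EIF5 and EIF6, -0.05, was 0.07 over probes above the limit in all 8 channels and 0.15 without replicate 3. With no replicate block, so that the pairing of ages within an array was ignored, 1 gene was higher and 3 were lower. The sign of EIF4G3 turned to 0.034 with normexp and loess ratios and with no pairing, to 0.040 with mean foreground and to 0.12 without replicate 4 (-0.13 to 0.12 over the replicates left out). AGO3 was 0.011 with median centring and 0.0084 with mean foreground, and -0.073 to 0.0043 without 1 replicate. Mean foreground also gave -0.074 for EIF2AK1, 0.0063 for AGO2 and -0.012 for EIF4B. EIF1 was 0.047 as the mean of its probes, and EIF5A2 ran from -0.17 to 0.15 without 1 replicate. The cause was not tested. Of the further probes, those of EIF4E2, at -1.07 and -1.03, passed with the dye term. Its use on scanner ratios and without single replicates was added after seeing the data, and without replicates 1, 3 and 4, their adjusted p stayed between 0.00437 and 0.0436. Without replicate 4 the brightest EEF1A1 probe had a ratio of -0.68 with the dye term, where replicate 3 was the only array of its orientation. The second EEF1A1 probe averaged 0.32 over 4 arrays, with the opposite sign. Signal near the negative controls limits EIF4E1B, EIF4EBP1, EIF4G3, EIF2AK2, EEF1A2, EIF5A2, the Argonautes and the second probes of EIF2S2, EIF4G2 and EIF1AD.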
